A study of Mus musculus with 16 samples.

Results

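Genes for 10 proteins that fold or guide secretory and membrane proteins in the endoplasmic reticulum (ER) were followed: Hspa5, Hsp90b1, Canx, Calr, Pdia3, P4hb, Pdia4, Pdia6, Serpinh1 and Ccdc47. They were chosen by gene symbol, and all 10 were found among the 43626 genes of the polyA read tables and among the 24544 genes of the FPKM table (fragments per kilobase of transcript, scaled to library size). PolyA RNA was measured in AFT024 and BFC012, 2 stromal lines derived from the fetal liver of C57BL/6 mice at 14.5 dpc (days post coitum), as well as in exosomes secreted by each. Exosomes are small vesicles released by cells. The labels call AFT024 supportive of HSPC (hematopoietic stem and progenitor cells) and BFC012 not supportive, and no treatment or added allele is named for either. Each class is 1 line, so a difference between the lines and a difference in supporting capacity cannot be told apart. The 4 groups have 2 samples each in the labels, but several exosome RNA extractions were pooled and split for sequencing, and the tables hold 1 merged value per group. No test was therefore possible, and the 95% intervals below are exact Clopper-Pearson intervals that cover counting error only.

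Secretory and membrane proteins enter the ER as unfolded chains. There they are bound by the Hsp70 chaperone BiP (Hspa5) and the Hsp90 chaperone GRP94 (Hsp90b1), by the lectin chaperones calnexin (Canx) and calreticulin (Calr), which hold proteins with trimmed glucose-bearing glycans, and by protein disulfide isomerases, which form and rearrange disulfide bonds. When unfolded protein accumulates, the unfolded protein response raises transcription of many of these genes through the ER stress response element (ERSE) in their promoters, and soluble residents are returned from the Golgi by a short signal at the end of the protein. Fibroblast-like stromal cells secrete much collagen and fibronectin and depend on this machinery.

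The ERSE is spelled as CCAAT and CCACG with 9 bases of any kind between them, and it is shown because it links 5 of the 10 genes by sequence alone. It was searched on both strands from 250 bases before to 50 bases after each RefSeq gene start (GRCm38.p6). It was present in 5 of the 10 genes and in 37 of 27025 genes in all (0.137%), or 39 of 32851 promoters (0.119%). The element contains a CCAAT box and the letters CCACG, which alone were present in 41.1% and 35.5% of genes. The 6 matches follow, each read so that CCAAT comes first, with both fixed ends in capitals.
Hspa5: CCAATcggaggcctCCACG
Hsp90b1, distal: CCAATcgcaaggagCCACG
Hsp90b1, proximal: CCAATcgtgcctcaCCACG
Canx: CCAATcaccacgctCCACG
Calr: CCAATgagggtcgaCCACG
Pdia6: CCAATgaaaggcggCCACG
These matches began at -65 in Hspa5, -212 and -107 in Hsp90b1, -145 in Canx, -162 in Calr and -98 in Pdia6, counted in bases from the gene start. The proximal match of Hsp90b1 and the match of Calr lay on the strand opposite to the gene. Pdia3, P4hb, Pdia4, Serpinh1 and Ccdc47 held no such letters in this window. The related ERSE-II (ATTGG and CCACG with 1 base between), the core TGACGTGG and the amino acid response core TGATGNAA were found in 0 of the 10 promoters, against 0.0444%, 0.714% and 4.51% of all genes. A match describes the letters only.

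The 250 bases before the start of Hspa5 (chr2:34771840-34772089, plus strand) and of Hsp90b1 (chr10:86705445-86705694, minus strand) are given with the ends of each exact ERSE match in capitals. They are shown because Hsp90b1 holds 2 exact matches and Hspa5 the match nearest to its start. Both are from RefSeq on GRCm38.p6. Near matches were not searched and are not marked.
Hspa5: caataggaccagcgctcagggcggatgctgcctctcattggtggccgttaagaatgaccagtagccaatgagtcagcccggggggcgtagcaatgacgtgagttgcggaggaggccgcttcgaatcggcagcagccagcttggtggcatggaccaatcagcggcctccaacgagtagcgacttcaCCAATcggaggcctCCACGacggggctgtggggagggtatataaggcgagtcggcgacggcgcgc
Hsp90b1: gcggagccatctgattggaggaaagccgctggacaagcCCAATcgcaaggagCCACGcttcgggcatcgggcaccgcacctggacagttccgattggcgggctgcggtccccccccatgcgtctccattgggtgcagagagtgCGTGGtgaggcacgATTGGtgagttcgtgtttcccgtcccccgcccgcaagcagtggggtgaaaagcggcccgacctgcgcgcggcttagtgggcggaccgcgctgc

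The coding ends set the 10 genes apart by role, so the last 30 coding bases of each are given, stop codon included, from the longest coding transcript in GENCODE M21 on GRCm38. Capitals mark the final 4 codons where they end in 2 acidic codons and a leucine codon before the stop, the pattern of the KDEL-type retrieval signal of soluble ER proteins.
Hspa5: gaggatacatcagaaAAAGATGAGTTGtag
Hsp90b1: aaggaatctacagagAAGGATGAATTGtaa
Calr: tcccctggccaagccAAGGATGAGCTGtag
P4hb: gatcagaaagctgtgAAGGATGAACTGtag
Pdia6: ctggatgacctggagAAGGATGAGTTGtga
Pdia4: aagaggagcaggaccAAGGAAGAGCTTtaa
Serpinh1: aagggagacaagatgCGAGATGAGTTGtag
Pdia3: aagaagaagaaggcaCAAGAGGACCTCtaa
Canx: ccaagaaacagaaagccacgaagagagtga
Ccdc47: atgaaacaaatcaaagtgaaagccatgtag
The pattern (GANGANCTN, GANGANTTG or GANGANTTA directly before the stop) was present in 8 of the 10 genes, against 101 of 21526 protein-coding genes (0.469%). The 2 without it, Canx and Ccdc47, encode membrane proteins, whereas the other 8 products are soluble. Of the 39 other ER folding genes measured, 19 also ended in this pattern.

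Depth and identity of the groups bear on all that follows. The read tables held 9038471 reads for AFT024 exosomes, 39385534 for AFT024 cells, 16344350 for BFC012 exosomes and 35874383 for BFC012 cells. Of 9 stromal markers, 7 in AFT024 cells and 6 in BFC012 cells reached 1 RPM (reads scaled to library size), whereas Thy1 and Lum stood at 3 reads or fewer in all groups. Of 6 blood cell genes found, Ptprc, Spi1, Gata1 and Hba-a1 had at most 2 reads in any group. The others were Cd68, at 3.81 RPM in AFT024 cells and 2.48 RPM in BFC012 cells, and Cd34, given below. Alb and Ttr, genes of liver parenchyma, had at most 6 reads, and Ttr and the endothelial gene Tek had 0 in every group. Outside the stromal list, levels above 100 RPM were reached by Cd34 of the blood list in both kinds of cell (110 and 121 RPM). Dlk1 of the liver list also did so in AFT024 cells (754 RPM). The summed level was at most 1.04 RPM for 4 endothelial markers and 1.17 to 21.9 RPM for 4 epithelial ones. The summed level of the stromal markers was 7111 and 6984 RPM in AFT024 and BFC012 cells and 2181 and 2668 RPM in their exosomes. Vim, Cxcl12 and Col1a1 carried most of these sums. Of 7 stromal markers measured, 3 in AFT024 and 2 in BFC012 were at least 2-fold lower in exosomes after scaling and 1 was higher in each, Pdgfra, which rose from 62.4 to 106 RPM in AFT024 and from 54.5 to 185 RPM in BFC012. The part of these shifts in the results below was not tested.

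On the read scale, exosomes of both lines held less of all 10 transcripts than their cells of origin, and for P4hb this turned on 1 of the FPKM scales, as given with its values. The 10 genes together took 0.565% of the polyA reads of AFT024 cells (0.563 to 0.567) and 0.105% of those of their exosomes (0.103 to 0.107). In BFC012 they took 0.554% of the cell reads (0.552 to 0.557) and 0.0868% of the exosome reads (0.0854 to 0.0883). A read ratio is the reads of exosomes divided by those of cells after median-of-ratios scaling over the 4 groups, and a gene was called lower at a ratio of 2-fold or more. By this rule 10 of 10 genes were lower in AFT024 exosomes, against 28.4% of the 13197 genes with at least 1 RPM in a group. In BFC012 exosomes 10 of 10 were lower, against 26.4%. In both lines at once 18.5% of all genes were lower. On deposited FPKM plus 1, 10 genes in AFT024 and 9 in BFC012 were lower, against 53.5% and 44.5% of 14969 genes, and relative to the median gene on that scale 9 and 9 were lower, against 22.5% and 22.8%. The gene that then missed the limit was P4hb. The members are abundant: 8 of the 10 belong to the top decile of genes by cell level, and in that decile 45.5% (AFT024) and 37.7% (BFC012) of genes were lower. The median log2 ratio of the 10 genes was -2.59 in AFT024 and -2.76 in BFC012, against -0.22 and -0.08 for the median gene and -0.87 and -0.60 for the median of the top decile. In bulk RNA of vesicles, fewer vesicles with a transcript and less of it per vesicle cannot be told apart. The number of vesicles was not measured.

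**Figure D1:**
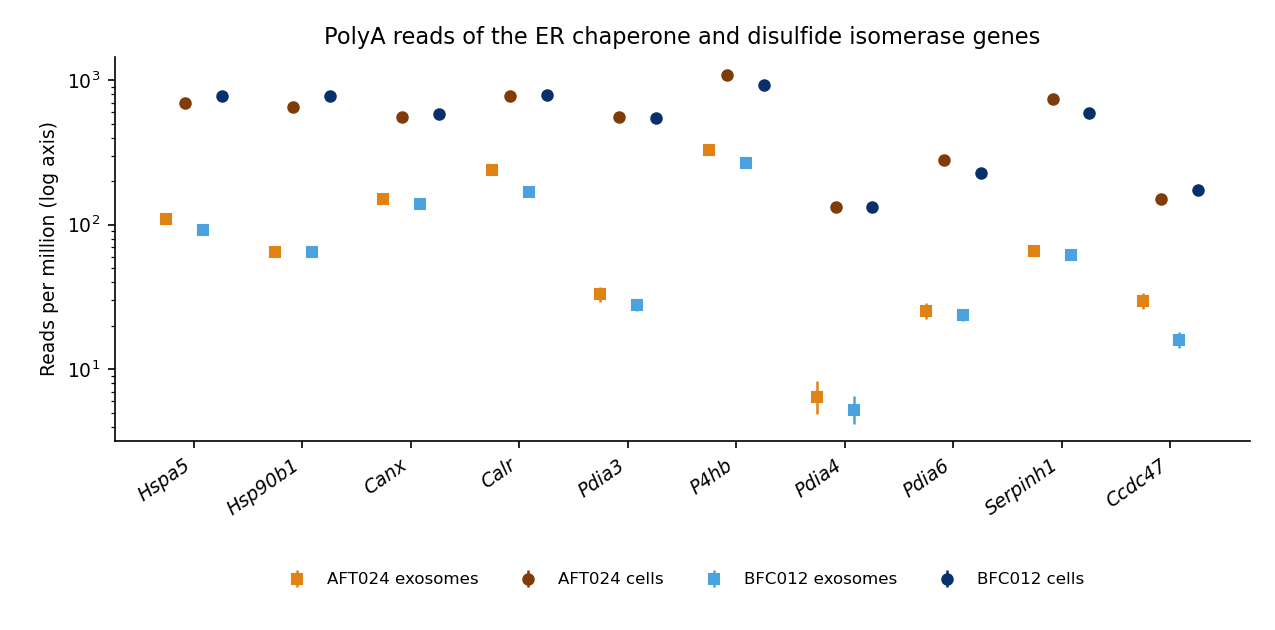
Read level in RPM on a log axis for each of the 10 genes in the 4 polyA groups, with exact 95% counting intervals where they exceed the symbol. Squares (exosomes) lie below circles (cells) for every gene, and the gap is widest for Pdia4 and Pdia3. It is narrowest for Calr and P4hb in AFT024 and for P4hb and Canx in BFC012.

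The general chaperones Hspa5 and Hsp90b1 were high in both kinds of cell and several-fold lower in exosomes. Hspa5 (chr2:34771969-34777547, mm10 as deposited), the ER Hsp70 that binds nascent chains, had 27593 reads (237 FPKM) in AFT024 cells and 991 reads (19.3 FPKM) in their exosomes. Hspa5 had 27944 reads (260 FPKM) in BFC012 cells and 1497 reads (21.8 FPKM) in their exosomes. The exosomes thus held 0.210 (0.196 to 0.223) of the scaled cell reads in AFT024 and 0.166 (0.158 to 0.175) in BFC012, a fall of 4.77-fold and 6.01-fold. Both cell groups were above both exosome groups, and the intervals of the lines lay apart.

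Hsp90b1 (chr10:86690208-86705509), the ER Hsp90 that matures integrins and Toll-like receptors, fell further. It had 25834 reads (218 FPKM) in AFT024 cells and 583 (11.6 FPKM) in their exosomes. Hsp90b1 had 27923 reads (255 FPKM) in BFC012 cells and 1059 (15.7 FPKM) in their exosomes. For Hsp90b1 the exosomes held 0.132 (0.121 to 0.143) of the scaled cell reads in AFT024 and 0.118 (0.111 to 0.125) in BFC012. These intervals overlapped. In cells Hspa5 and Hsp90b1 had nearly equal reads, at 1.07 (1.05 to 1.09) Hspa5 reads per Hsp90b1 read in AFT024 and 1.0 (0.984 to 1.02) in BFC012. In exosomes this rose to 1.70 (1.53 to 1.89) and 1.41 (1.31 to 1.53), values that do not depend on scaling between groups. The gene 1810014B01Rik overlaps 415 exonic bases of Hsp90b1 on the other strand. It had 79 reads or fewer in any group.

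The lectin chaperones kept more of their reads in exosomes. Calr (chr8:84841849-84846934), the soluble calcium-binding lectin, was the most abundant of the 10 in cells per length. It stood at 452 FPKM (30759 reads) in AFT024 cells and 65.2 FPKM (2166 reads) in their exosomes. Calr stood at 457 FPKM (28411 reads) in BFC012 cells and 64.0 FPKM (2769 reads) in their exosomes. For Calr the exosomes held 0.411 (0.393 to 0.429) of the scaled cell reads in AFT024 and 0.303 (0.291 to 0.315) in BFC012, and these intervals lay apart. The FPKM levels of Calr differed little between the lines in either kind of sample.

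Canx (chr11:50293960-50325673), the membrane-bound lectin, had 21946 reads (127 FPKM) in AFT024 cells and 1366 reads (17.7 FPKM) in their exosomes. Canx had 21049 reads (132 FPKM) in BFC012 cells and 2287 reads (22.1 FPKM) in their exosomes. For Canx the exosomes held 0.363 (0.344 to 0.384) of the scaled cell reads in AFT024 and 0.338 (0.323 to 0.353) in BFC012, and the intervals overlapped. Canx thus fell further than Calr in AFT024 and less far in BFC012. Calr had 1.40 (1.38 to 1.43) reads per Canx read in AFT024 cells and 1.59 (1.48 to 1.70) in the exosomes. In BFC012 the same quantity was 1.35 (1.33 to 1.37) in cells and 1.21 (1.15 to 1.28) in exosomes, so that it moved in opposite directions in the lines.

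The disulfide isomerases spread over the whole range. P4hb (chr11:120560297-120573253), protein disulfide isomerase itself and also the beta subunit of collagen prolyl 4-hydroxylase, had the most reads of the 10 in every group. It had 42951 reads (335 FPKM) in AFT024 cells and 2963 (147 FPKM) in their exosomes. P4hb had 33284 reads (281 FPKM) in BFC012 cells and 4379 (153 FPKM) in their exosomes. For P4hb the exosomes held 0.402 (0.388 to 0.418) of the scaled cell reads in AFT024 and 0.409 (0.396 to 0.422) in BFC012, a 2.48-fold and a 2.45-fold fall that overlapped between the lines. P4hb held its place among all genes: by FPKM it ranked 397 of 24544 in AFT024 cells and 504 in their exosomes, and 476 and 458 in BFC012. On deposited FPKM plus 1 its log2 ratio was -1.18 and -0.88, and relative to the median gene on that scale -0.06 and -0.07. With 0.1 added in place of 1, P4hb stood above the median gene, at 0.28 in AFT024 and 0.14 in BFC012, so its direction depends on the scale.

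Pdia3 (chr2:121413774-121438687), known as ERp57, works on glycoproteins bound to calnexin and calreticulin. It had 21989 reads (295 FPKM) in AFT024 cells and 298 (5.87 FPKM) in their exosomes. Pdia3 had 19629 reads (282 FPKM) in BFC012 cells and 452 (6.57 FPKM) in their exosomes. For Pdia3 the exosomes held 0.0791 (0.0703 to 0.0886) of the scaled cell reads in AFT024 and 0.0716 (0.0650 to 0.0786) in BFC012, a 12.6-fold and a 14.0-fold fall. Its FPKM rank went from 454 to 6101 in AFT024 and from 471 to 6680 in BFC012. The gene therefore parted from its lectin partners: Calr had 1.40 (1.37 to 1.42) reads per Pdia3 read in AFT024 cells and 7.27 (6.44 to 8.23) in the exosomes. In BFC012 this went from 1.45 (1.42 to 1.47) to 6.13 (5.54 to 6.78).

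Pdia4 (chr6:47796141-47813512), known as ERp72, was the lowest of the 10 per length in every group. It had 5216 reads (48.6 FPKM) in AFT024 cells and 58 (1.23 FPKM) in their exosomes. Pdia4 had 4749 reads (48.1 FPKM) in BFC012 cells and 86 (1.40 FPKM) in their exosomes. For Pdia4 the exosomes held 0.0649 (0.0492 to 0.0840) of the scaled cell reads in AFT024 and 0.0563 (0.0449 to 0.0696) in BFC012, the lowest of the 10 in both lines. With so few exosome reads its interval overlapped that of Pdia3. Pdia6 (chr12:17266544-17284770), known as P5, had 11096 reads (116 FPKM) in AFT024 cells and 229 (5.49 FPKM) in their exosomes. Pdia6 had 8212 reads (93.4 FPKM) in BFC012 cells and 388 (6.91 FPKM) in their exosomes. For Pdia6 the exosomes held 0.120 (0.105 to 0.137) of the scaled cell reads in AFT024 and 0.147 (0.132 to 0.163) in BFC012, between P4hb and Pdia3.

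Serpinh1 (chr7:99345374-99353230), the collagen-specific chaperone Hsp47, had 29176 reads (292 FPKM) in AFT024 cells and 598 (13.6 FPKM) in their exosomes. Serpinh1 had 21321 reads (232 FPKM) in BFC012 cells and 1013 (17.2 FPKM) in their exosomes. For Serpinh1 the exosomes held 0.120 (0.110 to 0.13) of the scaled cell reads in AFT024 and 0.148 (0.138 to 0.157) in BFC012, and these intervals lay apart. Cells of AFT024 had more of it than cells of BFC012 and the exosomes did not, as given below.

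Ccdc47 (chr11:106197407-106216344) encodes a calcium-binding ER membrane protein that helps insert multipass proteins, and it is neither a classical chaperone nor an isomerase. It had 5936 reads (65.6 FPKM) in AFT024 cells and 269 (2.63 FPKM) in their exosomes. Ccdc47 had 6282 reads (86.8 FPKM) in BFC012 cells and 260 (1.95 FPKM) in their exosomes. For Ccdc47 the exosomes held 0.264 (0.233 to 0.299) of the scaled cell reads in AFT024 and 0.129 (0.113 to 0.146) in BFC012. Its log2 ratio of FPKM plus 1 was lower still, at -4.20 and -4.89 against -1.92 and -2.96 in reads. This gap was not particular to Ccdc47. The median gene stood at -1.11 and -0.80 on FPKM plus 1, against -0.22 and -0.08 in reads. Pdia3 stood at -5.43 and -5.23 against -3.66 and -3.80, whereas P4hb went the other way, at -1.18 and -0.88 against -1.31 and -1.29.

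**Figure D2:**
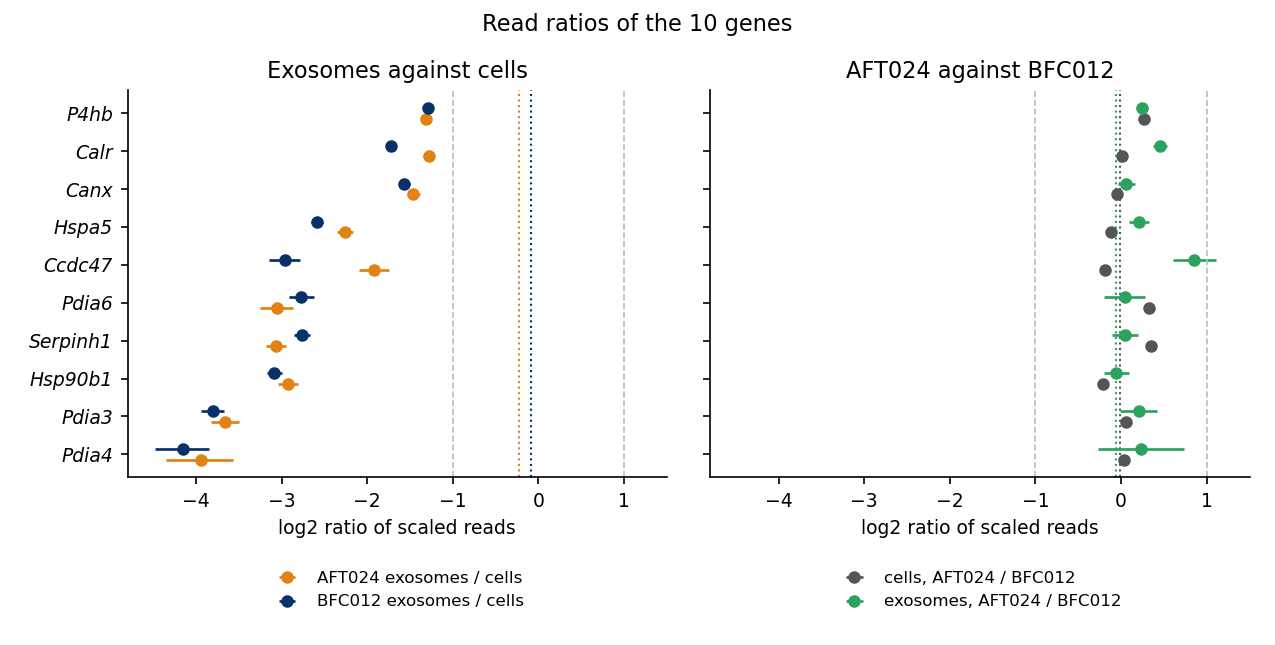
Log2 ratios of scaled reads with 95% counting intervals, exosomes against cells in each line (left) and AFT024 against BFC012 separately for cells and exosomes (right). Dashed lines mark 2-fold and dotted lines the median gene. All 20 points on the left lie below -1, and all 20 on the right lie within 2-fold.

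The mixture of the 10 transcripts shifted between cells and exosomes in the same direction in both lines for 9 of the 10 genes, Ccdc47 being the exception, which is a comparison within each group and needs no scaling. P4hb made up 19.3% (19.1 to 19.5) of the reads of the 10 genes in AFT024 cells and 31.1% (30.2 to 32.1) in their exosomes. In BFC012 it made up 16.7% (16.6 to 16.9) and 30.9% (30.1 to 31.6). Calr went from 13.8% to 22.7% in AFT024 and from 14.3% to 19.5% in BFC012, and Canx from 9.86% to 14.3% and from 10.6% to 16.1%. These 3 genes took the larger part of the exosome reads. Pdia3 fell from 9.88% to 3.13% in AFT024 and from 9.87% to 3.19% in BFC012. Serpinh1 fell from 13.1% to 6.28% and from 10.7% to 7.14%, and Pdia4 from 2.34% to 0.609% and from 2.39% to 0.606%. The shares of Pdia3 and of Pdia4 were nearly the same in both exosome groups. P4hb had 8.23 (8.0 to 8.48) reads per Pdia4 read in AFT024 cells and 51.1 (39.4 to 67.4) in exosomes, and 7.01 (6.80 to 7.23) and 50.9 (41.1 to 63.8) in BFC012.

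**Figure D3:**
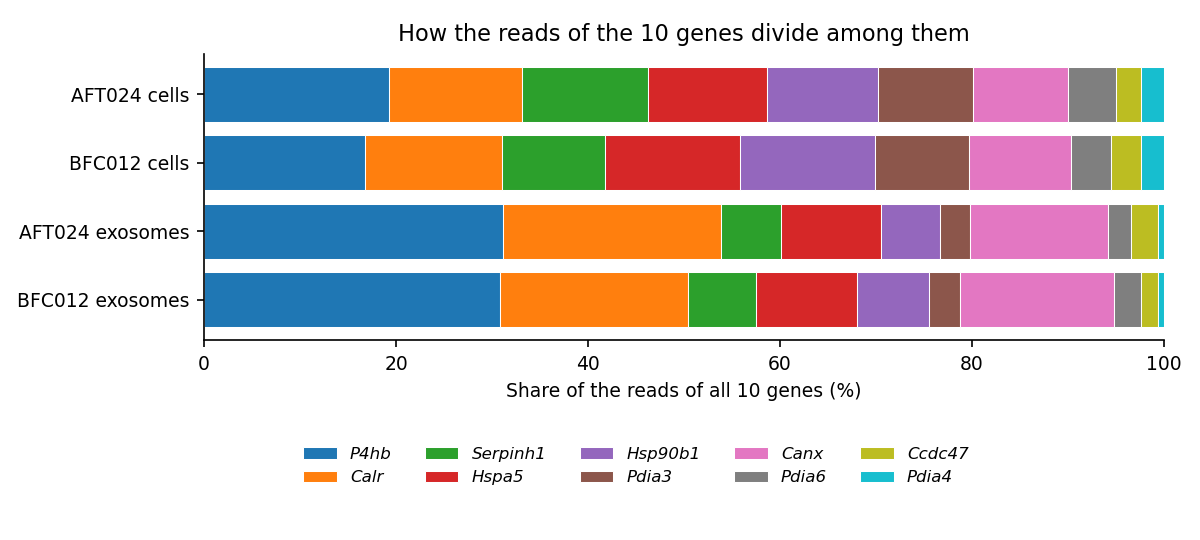
Share of each gene in the summed reads of the 10 genes, in percent, for the 4 polyA groups. P4hb, Calr and Canx widen from cells to exosomes in both lines, and Pdia3, Serpinh1, Hsp90b1 and Pdia4 narrow.

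The ER chaperones were also compared within each group with their relatives in other compartments. Hspa5 had 0.763 (0.751 to 0.775) reads per read of Hspa8, the cytosolic Hsp70, in AFT024 cells and 0.262 (0.244 to 0.281) in the exosomes. In BFC012 it had 0.655 (0.645 to 0.665) and 0.208 (0.197 to 0.22). Against Hspa9, the mitochondrial Hsp70, Hspa5 went from 0.848 (0.835 to 0.862) to 0.356 (0.331 to 0.383) in AFT024 and from 0.871 (0.858 to 0.886) to 0.308 (0.291 to 0.327) in BFC012. The ER form of Hsp70 was thus lower in exosomes relative to both relatives.

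The Hsp90 genes followed the same order. Hsp90b1 had 1.03 (1.01 to 1.05) reads per read of Hsp90aa1, the stress-inducible cytosolic Hsp90, in AFT024 cells and 0.228 (0.208 to 0.249) in exosomes. In BFC012 this went from 1.47 (1.44 to 1.49) to 0.254 (0.238 to 0.272). Against Hsp90ab1, the constitutive cytosolic form, it went from 0.158 (0.156 to 0.160) to 0.0430 (0.0395 to 0.0467) in AFT024 and from 0.193 (0.191 to 0.196) to 0.0419 (0.0394 to 0.0446) in BFC012. The drop was widest against Trap1, the mitochondrial form, from 4.06 (3.95 to 4.17) to 0.702 (0.630 to 0.781) in AFT024 and from 4.54 (4.41 to 4.66) to 0.311 (0.29 to 0.333) in BFC012. Hspa8, Hsp90aa1, Hsp90ab1 and Ppia are members of multigene families with near-identical copies, and how shared reads were counted is not given in the sources used here. Ppib, the ER cyclophilin, had 0.251 (0.246 to 0.257) reads per read of its cytosolic relative Ppia in AFT024 cells and 0.189 (0.174 to 0.205) in exosomes, and 0.324 (0.317 to 0.331) and 0.162 (0.149 to 0.175) in BFC012. Clgn, a testis relative of Canx, had 15 reads or fewer in every group.

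**Figure D4:**
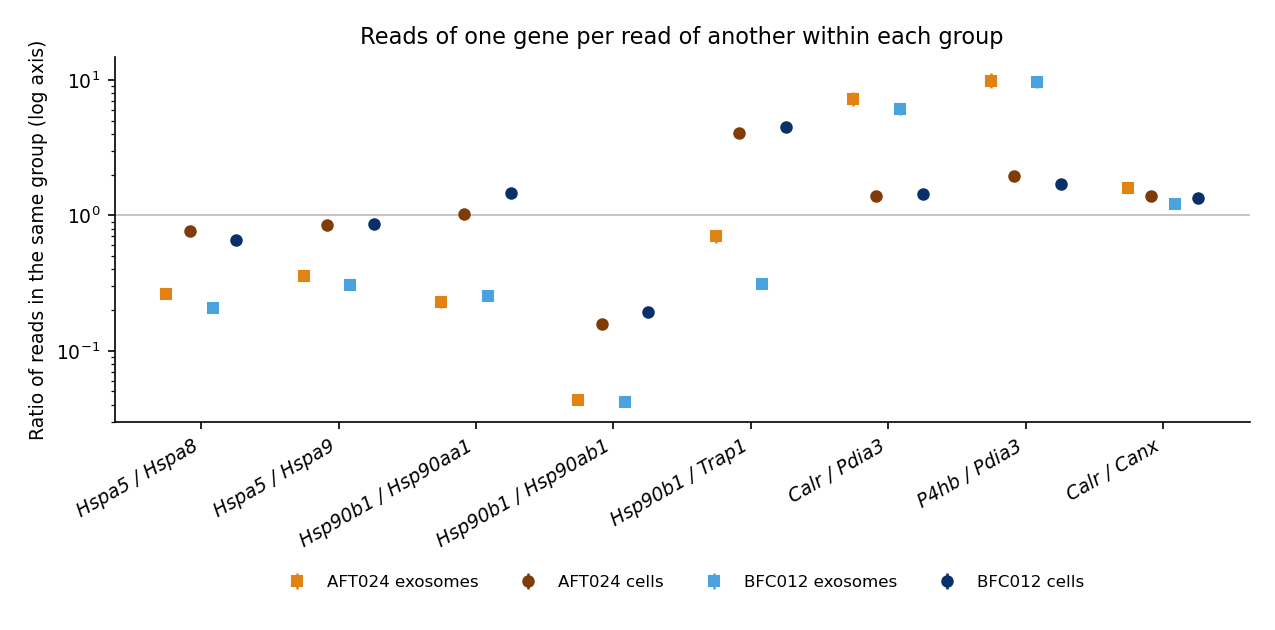
Reads of one gene per read of another in the same group, on a log axis, with 95% counting intervals. Squares (exosomes) lie below circles (cells) for Hspa5 and Hsp90b1 against each cytosolic or mitochondrial relative, above them for Calr and P4hb against Pdia3, and near them for Calr against Canx.

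Cells of the supportive and the non-supportive line differed little in these genes. In cells 0 of 10 genes were 2-fold higher in AFT024 and 0 were 2-fold lower, against 11.3% and 9.19% of all genes. The log2 ratios of AFT024 to BFC012 cells ran from -0.22 for Hsp90b1 to 0.35 for Serpinh1, with 6 genes above and 4 below equal reads. The median gene stood at -0.01, and the share of all genes above equal reads was not counted. Serpinh1 had 1.27 (1.25 to 1.3) times and Pdia6 1.26 (1.22 to 1.29) times the scaled reads in AFT024 cells, and P4hb 1.2 (1.18 to 1.22) times. Hsp90b1 stood at 0.861 (0.847 to 0.876) and Hspa5 at 0.919 (0.904 to 0.935). The authors' deposited table lists a q-value under 0.05 for 7 of the 10 genes in this comparison, and the ratios show how small the differences were. The q-values compare 1 merged value per group and hold no spread between samples. The share of all genes under 0.05 was not counted.

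In exosomes 0 of 10 genes were 2-fold higher in AFT024 and 0 were 2-fold lower, against 16.2% and 15.8% of all genes. The ratio of AFT024 to BFC012 exosomes was above equal reads in 9 of 10 genes, with the median gene at -0.06 (log2). The share of all genes above equal reads was not counted. The ratio was 1.37 (1.29 to 1.45) for Calr and 1.18 (1.13 to 1.24) for P4hb. Ccdc47 had the widest ratio at 1.81 (1.52 to 2.15). For Hsp90b1, Canx, Pdia3, Pdia4, Pdia6 and Serpinh1 the interval included equal reads. These directions depend on the scale: on deposited FPKM plus 1, 8 of the 10 genes lay below equal levels, Calr stood at 0.03 and P4hb at -0.05 (log2), and the median gene at -0.23. The authors' deposited table lists a q-value under 0.05 for 4 of the 10 genes between the exosomes. It lists a q-value of 0 for all 10 in both comparisons of exosomes with cells. Such q-values also come from 1 merged value per group and hold no spread between samples. How many of all genes reach the same q-values was not counted. These 4 comparisons share groups and are not independent of each other.

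The exosome-against-cell change differed between the lines by at least 2-fold, with intervals apart, in 1 of the 10 genes. This is near the 15.1% of all genes that passed the same rule. The absolute log2 difference between the lines had a median of 0.25 over the 10 genes and 0.52 over all genes. The gene called was Ccdc47, which changed 2.06-fold more in BFC012. Hspa5 (1.26-fold), Calr (1.36-fold) and Serpinh1 (1.23-fold) also had intervals apart, with the lower ratio in BFC012 for Hspa5 and Calr and in AFT024 for Serpinh1. The share of all genes with intervals apart at any size of difference was not counted. With many reads, the counting intervals are narrow and small differences can part them. Strada, a pseudokinase gene, overlaps 158 exonic bases of Ccdc47 on the same strand. Strada had 1392 reads in AFT024 cells and 68 in their exosomes, and 578 and 75 in BFC012. Its part in the reads of Ccdc47 was not tested, and on FPKM plus 1 as deposited the difference of Ccdc47 between the lines was under 2-fold. Relative to the median gene, with 1 or 0.1 added to FPKM, the difference of Ccdc47 again passed 2-fold.

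Other genes of the same pathway are given from lists written with earlier results of these data known, each beside the 28.4% (AFT024) and 26.4% (BFC012) of all genes that were lower and the 22.7% and 24.5% that were higher. Scaling by library totals instead gives 5212 lower and 2201 higher of 13197 genes in AFT024 in place of 3743 and 2993, and 5126 and 2165 in BFC012 in place of 3489 and 3233. The median gene then stands at -0.65 and -0.58 rather than -0.22 and -0.08. Relative to the median gene, the 10 ER genes stood at -3.72 to -1.06 in AFT024 and -4.07 to -1.21 in BFC012, still 10 of 10 beyond 2-fold.

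Of 39 other ER folding genes, 29 were lower and 1 higher in AFT024 exosomes, and 31 were lower and 1 higher in BFC012 exosomes, 28 of them lower in both. The list medians were -1.64 and -1.80. Pdia5, a further disulfide isomerase, had 26 exosome and 4105 cell reads in AFT024, a ratio of 0.0370 (0.0241 to 0.0542), and 0.0925 (0.0660 to 0.126) in BFC012. Hyou1, the large ER Hsp70 relative that exchanges nucleotide on BiP, gave 0.108 (0.0907 to 0.128) and 0.0858 (0.0746 to 0.0983). Sil1, the other nucleotide exchange factor, gave 0.351 (0.255 to 0.473) and 0.309 (0.25 to 0.378). Uggt1, which reglucosylates misfolded glycoproteins so that calnexin and calreticulin rebind them, gave 0.467 (0.430 to 0.507) and 0.409 (0.379 to 0.442). Ero1l, the oxidase that recharges P4hb, gave 0.460 (0.406 to 0.520) in AFT024 and 0.197 (0.169 to 0.229) in BFC012. Calu, a calcium-binding protein of the secretory pathway, gave 0.198 (0.186 to 0.211) and 0.329 (0.320 to 0.339). Txndc5, a thioredoxin-domain disulfide isomerase with many reads, gave 0.736 (0.704 to 0.768) in AFT024 and 1.67 (1.62 to 1.72) in BFC012. Cnpy2 was the gene of this list that passed 2-fold higher, with 3.41 (3.17 to 3.67) and 3.30 (3.10 to 3.51), and 9 genes in AFT024 and 7 in BFC012 passed neither limit.

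The unfolded protein response and degradation genes did not move as a block. Of 30 measured, AFT024 exosomes were lower in 8 and higher in 6, and BFC012 exosomes lower in 15 and higher in 4, with medians of -0.59 and -0.75. With library totals the AFT024 count became 16 lower and 5 higher. Atf4, a transcription factor of the stress response, gave ratios of 1.18 (1.14 to 1.22) and 1.0 (0.966 to 1.04). Ppp1r15b, a regulatory subunit of the phosphatase acting on eIF2alpha, was higher in exosomes, at 8.79 (8.5 to 9.09) and 8.53 (8.25 to 8.82). Creb3l1, an ER-bound transcription factor that drives collagen genes, had 13 exosome reads in AFT024 and gave 0.0399 (0.0212 to 0.0684), against 0.362 (0.213 to 0.584) in BFC012.

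Of 35 genes of the translocon, signal peptidase and oligosaccharyltransferase, AFT024 exosomes were lower in 22 and higher in 1, and BFC012 exosomes lower in 25 and higher in 0, with medians of -1.32 and -1.72. Stt3a, a catalytic subunit of the oligosaccharyltransferase, gave 0.120 (0.107 to 0.133) and 0.1 (0.0914 to 0.110). Ssr3, a subunit of the translocon-associated complex, gave 0.366 (0.348 to 0.385) and 0.322 (0.306 to 0.338). Rpn2, a further subunit of the transferase, gave 0.172 (0.159 to 0.187) and 0.215 (0.203 to 0.226), although its deposited FPKM in AFT024 exosomes was 176 against 204 in cells. Srp9, which belongs to the cytosolic signal recognition particle, was the gene higher in AFT024, at 3.54 (3.32 to 3.76), and gave 1.86 (1.72 to 2.00) in BFC012.

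Collagen-modifying enzymes were lower in 17 of 19 cases in AFT024 and in 12 of 19 in BFC012, with 0 and 1 higher and medians of -1.85 and -1.21. P4ha1 and P4ha2 encode the catalytic subunits that pair with P4hb in prolyl 4-hydroxylase. P4ha1 gave 0.285 (0.247 to 0.328) and 0.491 (0.454 to 0.531), and P4ha2 gave 0.270 (0.228 to 0.318) and 0.550 (0.474 to 0.637). P4hb itself was near 0.4 in both lines, so the subunit pair did not keep one proportion. P4hb had 10.3 (9.97 to 10.6) reads per P4ha1 read in AFT024 cells and 14.5 (12.6 to 16.8) in exosomes, against 7.17 (6.95 to 7.39) and 5.97 (5.52 to 6.46) in BFC012. Lox, the collagen cross-linking oxidase, gave 0.0821 (0.0740 to 0.0909) and 0.183 (0.175 to 0.192). Pcolce, an enhancer of procollagen processing, gave 0.294 (0.28 to 0.309) and 0.367 (0.355 to 0.378), and Loxl2 1.12 (1.04 to 1.21) and 1.02 (0.928 to 1.12).

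Among 29 secreted and membrane glycoproteins that pass through the ER, 25 were lower and 0 higher in each line, with medians of -2.85 and -2.70, close to those of the 10 ER genes. Fn1, fibronectin, gave 0.116 (0.112 to 0.120) and 0.340 (0.335 to 0.345), and Thbs1, thrombospondin, 0.200 (0.191 to 0.208) and 0.304 (0.298 to 0.309). Col4a1, a basement membrane collagen, gave 0.0365 (0.0319 to 0.0415) and 0.0203 (0.0166 to 0.0245). Col1a1, the main client of Serpinh1, gave 0.0347 (0.0316 to 0.0380) and 0.165 (0.155 to 0.176). In AFT024 Col1a1 fell further than Serpinh1, and in BFC012 the fall of both was close. Serpinh1 had 0.369 (0.364 to 0.374) reads per Col1a1 read in AFT024 cells and 1.27 (1.13 to 1.44) in exosomes, whereas in BFC012 it had 1.17 (1.15 to 1.19) and 1.05 (0.956 to 1.14). Col1a2 had 12 reads in BFC012 cells and 5 in their exosomes.

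Chaperones of the cytosol and mitochondria fell less. Of 31 measured, AFT024 exosomes were lower in 14 and higher in 0, and BFC012 exosomes lower in 11 and higher in 2, with medians of -0.91 and -0.81. With library totals 22 passed the lower limit in AFT024 and 20 in BFC012, and 0 the upper limit in either. Hspa8 gave 0.610 (0.590 to 0.631) and 0.523 (0.510 to 0.536), Hspa9 0.499 (0.480 to 0.519) and 0.471 (0.456 to 0.485), and Hsp90ab1 0.483 (0.475 to 0.492) and 0.544 (0.537 to 0.551). Cct4, a subunit of the cytosolic chaperonin, gave 1.26 (1.22 to 1.3) and 2.51 (2.45 to 2.57), and Ppid, a cytosolic cyclophilin, 0.194 (0.174 to 0.216) and 0.203 (0.183 to 0.226). Hsp90aa1 gave 0.595 (0.571 to 0.619) and 0.680 (0.657 to 0.703).

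**Figure D5:**
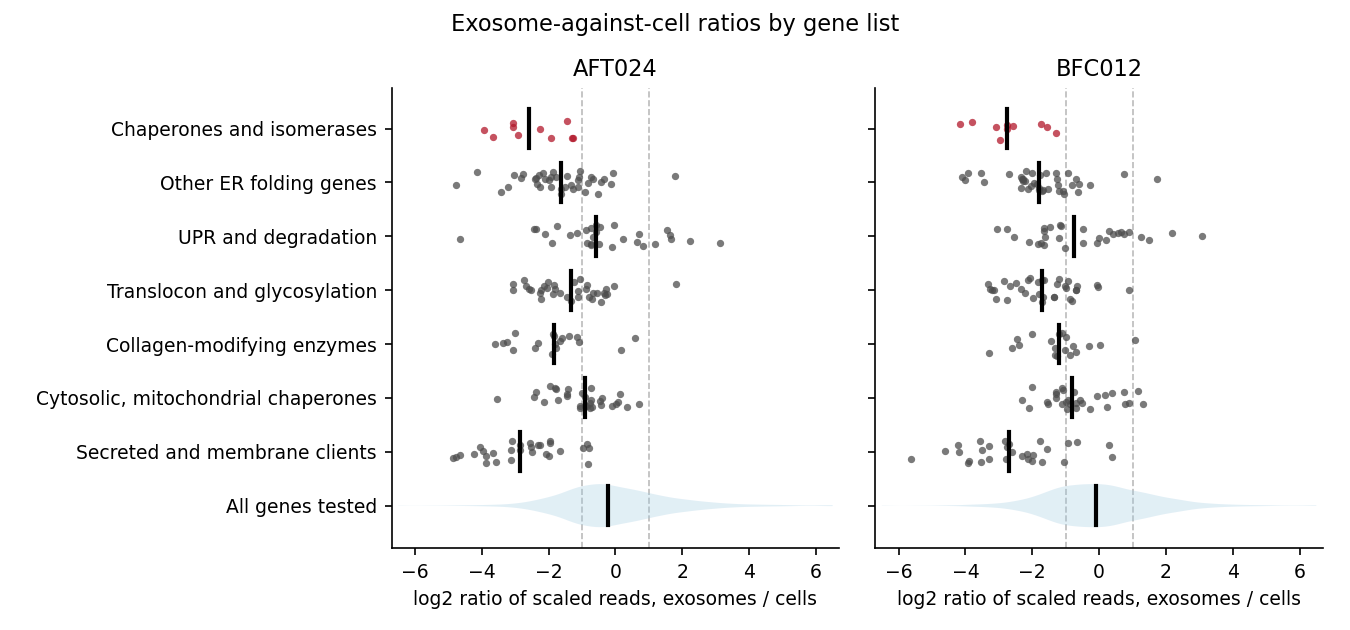
Log2 ratios of scaled reads, exosomes against cells, for each measured gene (points) of the 10 ER genes (red) and 6 further lists, with list medians as black bars and the spread of all 13197 genes below. UPR stands for unfolded protein response, and dashed lines mark 2-fold. The 10 ER genes and the secreted clients lie furthest to the left in both lines.

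Sequence features were set beside the ratios. The 5 genes with an ERSE had a median log2 ratio of -2.26 in AFT024 and -2.59 in BFC012, and the 5 without it -3.06 and -2.96, so both sets were lower. Of 11 further measured genes with an ERSE, AFT024 exosomes were lower in 6 and higher in 1, and BFC012 exosomes lower in 5 and higher in 1. Of 64 further measured genes that end in the retrieval pattern, 59.4% were lower in AFT024 and 53.1% in BFC012, against 28.9% and 25.9% of 11879 coding genes without it. Part of these genes are on the ER folding list above. Annotated transcripts of the 10 genes were 2175 to 5193 bases long, with a median of 2797.5. Among genes with transcripts of 1965 to 3049 bases, 34.0% fell past the limit in AFT024 and 27.2% in BFC012. For 3050 to 4552 bases the shares were 28.7% and 23.2%, and for 4553 bases or more 21.6% and 19.1%.

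By centred log2 RPM over the 4 groups, 5 genes of 8593 with at least 10 RPM in each cell group came nearest to the median profile of the 10 genes. They were Zdhhc13, a palmitoyltransferase gene, at a Euclidean distance of 0.058, then 0610007P14Rik at 0.110, Dnajb11 at 0.124, Ttc14 at 0.142 and Fam69a at 0.145. Dnajb11 encodes an ER Hsp40 that delivers clients to BiP, and it gave read ratios of 0.191 (0.162 to 0.225) and 0.155 (0.135 to 0.178). Of the 10 genes themselves, Hspa5 was nearest to their median profile at 0.243 and Pdia4 farthest at 1.39. Each profile has only 4 values.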

How the data were processed

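PolyA RNA of cells and exosomes of AFT024 and BFC012 was purified with oligo-dT after Trizol extraction, per the labels' protocols. The submitters' processing notes name TopHat, Cufflinks, Bowtie and the build mm10, with no role for each. Which program counted the reads, whether it used strand and which gene annotation it read is not given in the sources used here. Pairwise tables, as deposited, hold read counts that the authors divided by a factor per group. The deposited FPKM table, named RPKM in the labels, was computed by the authors. Dividing each read column by its smallest step gave whole numbers for 100% of values at a tolerance of 0.01 reads, and tables that share a group held equal reads for it. The authors' q-values were copied from the deposited tables. Of the columns with values per sample, 0 were left unused.

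From there, reads were scaled by median-of-ratios size factors over the 4 polyA groups (Python 3.11.15, numpy 2.4.6, scipy 1.17.1). Ratios have exact Clopper-Pearson 95% intervals, taken from how the reads of a gene divide over the compared groups. Genes with at least 1 RPM in at least 1 group formed the background of 13197 genes. A difference between the lines was called at 2-fold with the intervals of both lines apart. Alternatives were library totals, the trimmed mean of M values (computed directly, not with edgeR), size factors of the pair alone, FPKM with 1 or 0.1 added on the log2 scale, limits of 1.5-fold and 3-fold, and no filter. Ratios relative to the median gene and the background of the top decile by cell level were added after seeing the data. Without an SD between samples no p-value was computed.

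The 10 genes and the lists were chosen with earlier results of these data known. Named genes were the 10 genes, fixed partners and relatives, and of each other list the 2 with most reads and the highest and lowest mean ratio. The small RNA tables were not used here. In the lists, 3 genes were matched by an older symbol, and Hbb-b1 was not matched. Promoters come from RefSeq on GRCm38.p6 and coding ends, lengths and overlaps from GENCODE M21. Protein sequences were not used here.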

Additional observations from a re-analysis of the deposited data

Results flagged for a closer look

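Among the genes that the naming rule picks, 4 had an exosome-against-cell read ratio below 1 in AFT024 and above 1 in BFC012, with both intervals excluding equal reads. Of all 183 measured genes of the 6 lists, 11 had this order of signs and 3 the opposite one (7.65% together), against 18.8% of the 13197 genes tested. The difference was not tested, since each group has 1 value. Txndc5, an ER disulfide isomerase relative, had a read ratio of 0.736 (0.704 to 0.768) in AFT024 and 1.67 (1.62 to 1.72) in BFC012, a log2 difference of -1.18. Trap1, the mitochondrial Hsp90, had 0.761 (0.707 to 0.819) and 1.72 (1.65 to 1.80), a difference of -1.18. Igf2r, the receptor that sorts lysosomal enzymes, had 0.561 (0.511 to 0.615) and 1.23 (1.16 to 1.3), a difference of -1.13. Vcp, the ATPase that extracts proteins from the ER for degradation, had 0.662 (0.639 to 0.685) and 1.33 (1.31 to 1.36), a difference of -1.01. In deposited FPKM all 4 genes were lower in the exosomes of both lines. The median gene was lower too, at -1.11 in AFT024 and -0.80 in BFC012 on log2 of FPKM plus 1. On that scale Txndc5 stood at -1.77 and -0.25, Trap1 at -1.75 and -0.23, Igf2r at -1.85 and -0.62, and Vcp at -1.93 and -0.58. All 4 genes thus lay below the median gene in AFT024 and above it in BFC012. None of the 10 ER genes went in opposite directions.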

How the results depend on the processing

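No paired analysis was possible because the deposited columns hold 1 merged value per group and carry no replicate number, and for the same reason no replicate could be left out. The counts of genes lower in exosomes stayed at 10 of 10 in both lines under library totals, the trimmed mean of M values, size factors of the pair, no filter and centring on the median gene. With FPKM they were 9 or 10, and at 3-fold they were 7 in AFT024 and 8 in BFC012. The share of all genes past the 3-fold or the 1.5-fold limit was not counted. P4hb was the gene lost with FPKM, and with 0.1 added and centring on the median gene its log2 ratio turned to 0.28 in AFT024 and 0.14 in BFC012; the cause was not tested. The number of genes whose change differed between the lines was 1 (Ccdc47) with the reads. It was also 1 with FPKM relative to the median gene, with 1 or 0.1 added. The number was 0 with FPKM plus 1 as deposited, where the cause was not tested, and 0 at 3-fold, by the higher limit. At 1.5-fold 1 gene, Ccdc47, was higher in AFT024 than in BFC012 exosomes, by the lower limit. Over the read scalings the median log2 ratio of the 10 genes ran from -3.01 to -2.37 in AFT024 and from -3.27 to -2.68 in BFC012. Depth limits Pdia4 most, with 58 and 86 exosome reads. Spread between cultures, exosome preparations and libraries is not known.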
